A study of Drosophila melanogaster with 31 samples.

Results

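The 8 genes described here, *gcm*, *gcm2*, *ush*, *lz*, *crq*, *Pxn*, *Ppn* and *PPO2*, are genes of haemocytes, the blood cells of the fly, and were taken by their symbols in the platform's gene table. They were measured by 9 probe sets of 18769, *Pxn* by 2 of them, and are 8 of 11982 genes that at least 1 probe set names alone. All 8 were tested in every comparison, with no filter on low values. Where a gene had several probe sets, the one with the highest mean over all arrays stands for it.

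The study followed *Drosophila* embryonic cells that switch on *ato*, the proneural gene of chordotonal (stretch-sensing) organs, through the first hours of their development. Cells were dissociated from timed embryos, separated by flow sorting into GFP+ and GFP− cells, and each sample was hybridised to 1 Affymetrix *Drosophila* 2.0 array. Values are log2 intensities, so that a difference of 1 is a doubling.

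Every group carried the same GFP reporter, a fragment from upstream of *ato* in 1 transgenic line, atoGFP.7. It labels chiefly chordotonal precursors and their progeny, and also cells of the future larval eye. The wild-type genotype was atoGFP.7;w118, collected at 5.75 to 6.75 h (t1), 6.75 to 7.75 h (t2) and 7.75 to 8.75 h (t3) after egg laying. The paper gives these windows as equivalent developmental ages. The sample records list 11.5 h (t1), 13.5 h (t2) and 15.5 h (t3) at 18 °C. The mutant, atoGFP.7;ato(mutant);w118, carried a presumed null allele of *ato* backcrossed to the reporter stock, and was collected at t1 only, at 5.75 to 6.75 h. Each of the 8 groups had 4 arrays from independent samples, except GFP− cells at t3, which had 3. GFP− cells were all the other cells of the same embryos, haemocytes included, so a fold difference compares the sorted cells with a mixture. In such bulk samples fewer cells of a type and less RNA per cell cannot be told apart.

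Haemocytes arise in the head mesoderm, where the GATA factor Srp sets the lineage. Most become plasmatocytes, macrophages that engulf dying cells and deposit extracellular matrix as they spread through the embryo, and a few become crystal cells, which store the prophenoloxidases of melanisation. *gcm* and *gcm2* encode related transcription factors that direct plasmatocytes, and also the lateral glia of the nervous system, so they are not particular to blood. Whether the other genes are particular to blood in these embryos was not tested.

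Column medians of the arrays lay between 4.71 and 4.84. *ato* itself stood between 12.2 and 12.4 in wild-type GFP+ cells and between 8.58 and 8.81 in GFP− cells at t1, and between 11.1 and 11.9 in mutant GFP+ cells, so its transcript level does not check the mutation. In wild type the *ato* mean in GFP+ cells was 12.49 at t2 and 8.10 at t3. Mesoderm and muscle genes (4 of 6 listed were measured: *twi*, *lmd*, *bap* and *meso18E*) averaged 6.48 to 7.22 per array in GFP+ cells at t1 and 7.95 to 9.02 at t3. In GFP− cells they averaged 10.1 to 10.2 at t1 and 9.15 to 9.44 at t3. GFP+ replicate 3 at t3 stood apart, with the highest mesoderm mean of its group (9.02), the highest endoderm mean (8.44, against 7.31 to 7.61 in the other 3 arrays) and the lowest *ato* level (7.77, against 7.91 to 8.56). GFP+ replicate 4 at t3 stood apart the other way, with a sensory precursor mean of 9.58, against 8.64 to 8.92. The labels of 1 array, GFP− replicate 4 at t2, name both classes; it was used as its title says, and without it the count at t2 was still 6.

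At t1, the youngest age, the haemocyte genes, *lz* apart, were depleted from the sorted cells. The limits for a call were 1.5-fold and an adjusted p of 0.01 in limma. By this rule 7 of the 8 genes were lower in GFP+ than in GFP− cells and 0 were higher, where over all genes 4.77% were called lower and 2.45% higher. The median difference of the 8 was −1.06, against 0.01 over all genes. At an unadjusted p under 0.05, 1 gene, *lz*, was higher.

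*gcm*, a zinc-binding transcription factor that starts the plasmatocyte and glial programmes, stood at 8.46, 8.92, 9.28 and 8.98 in the 4 GFP+ arrays at t1. In the GFP− arrays it stood at 11.18, 11.38, 11.43 and 11.29. Every GFP+ array was far below every GFP− array. *gcm* was 5.33-fold lower in GFP+ cells (log2 difference −2.41, SE 0.13, adjusted p = 4.6e-15). Its paralogue *gcm2*, which shares its functions and lies close to it on the chromosome (2 protein-coding genes lie between them in the RefSeq annotation of the Release 6 assembly), gave low values throughout, with group means from 3.72 to 4.85. It stood at 3.92, 3.54, 3.65 and 3.90 in GFP+ cells and at 4.78, 4.81, 4.63 and 4.51 in GFP− cells. These groups did not overlap, and *gcm2* was 1.90-fold lower in GFP+ cells (log2 difference −0.93, SE 0.13, adjusted p = 2.4e-06).

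*ush* encodes a multi-zinc-finger cofactor of GATA factors that restrains crystal cell development. It stood at 7.79, 8.11, 8.0 and 8.12 in GFP+ cells and at 9.08, 9.0, 9.38 and 9.04 in GFP− cells at t1. The groups were apart on every array, and *ush* was 2.17-fold lower in GFP+ cells (log2 difference −1.12, SE 0.09, adjusted p = 4.1e-11). *lz*, the Runx factor gene of crystal cells, went the other way at very low levels. It stood at 4.42, 4.76, 4.09 and 4.23 in GFP+ cells and at 4.04, 3.59, 3.79 and 3.74 in GFP− cells, all under the median of all values on the arrays, 4.77. The groups did not overlap, but the log2 difference of 0.58 (SE 0.13, adjusted p = 0.00094) fell just short of 1.5-fold. It was called when values were centred on ribosomal protein genes (log2 difference 0.66) and without GFP+ replicate 3 or 4 or GFP− replicate 1 or 3, so its side of the limit is not settled.

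Among the effector genes, *Ppn*, which encodes papilin, a matrix proteoglycan-like glycoprotein, had the largest difference of the 8. It stood at 7.14, 7.72, 8.21 and 8.56 in GFP+ cells and at 11.06, 11.10, 11.17 and 11.18 in GFP− cells at t1. The GFP− arrays agreed closely and the GFP+ arrays were spread over more than 1 log2 unit, still far below them. *Ppn* was 9.32-fold lower (log2 difference −3.22, SE 0.22, adjusted p = 1.2e-12). *PPO2*, a prophenoloxidase of crystal cells, stood at 6.25, 6.75, 6.84 and 6.31 in GFP+ cells and at 8.02, 8.04, 8.43 and 7.97 in GFP− cells. It was 2.99-fold lower without overlap (log2 difference −1.58, SE 0.25, adjusted p = 1.4e-05).

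*crq*, the CD36-family scavenger receptor with which plasmatocytes take up dying cells, stood at 7.79, 8.23, 7.96 and 8.22 in GFP+ cells and at 9.01, 8.99, 9.17 and 9.03 in GFP− cells. It was 2.00-fold lower, without overlap (log2 difference −1.0, SE 0.15, adjusted p = 5.5e-06). The suffix of its probe set marks one that may match more than 1 transcript family. *Pxn*, which encodes peroxidasin, a peroxidase of the extracellular matrix, stood at 5.51, 5.50, 5.65 and 5.49 in GFP+ cells and at 5.99, 6.10, 6.6 and 6.42 in GFP− cells. This was a 1.67-fold lower level (log2 difference −0.74, SE 0.13, adjusted p = 6.4e-05). The second *Pxn* probe set was flat, with group means from 3.51 to 3.71, and was called in 0 of the 10 comparisons, so with the mean of both probe sets *Pxn* changed by −0.31 and was not called.

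**Figure D1:**
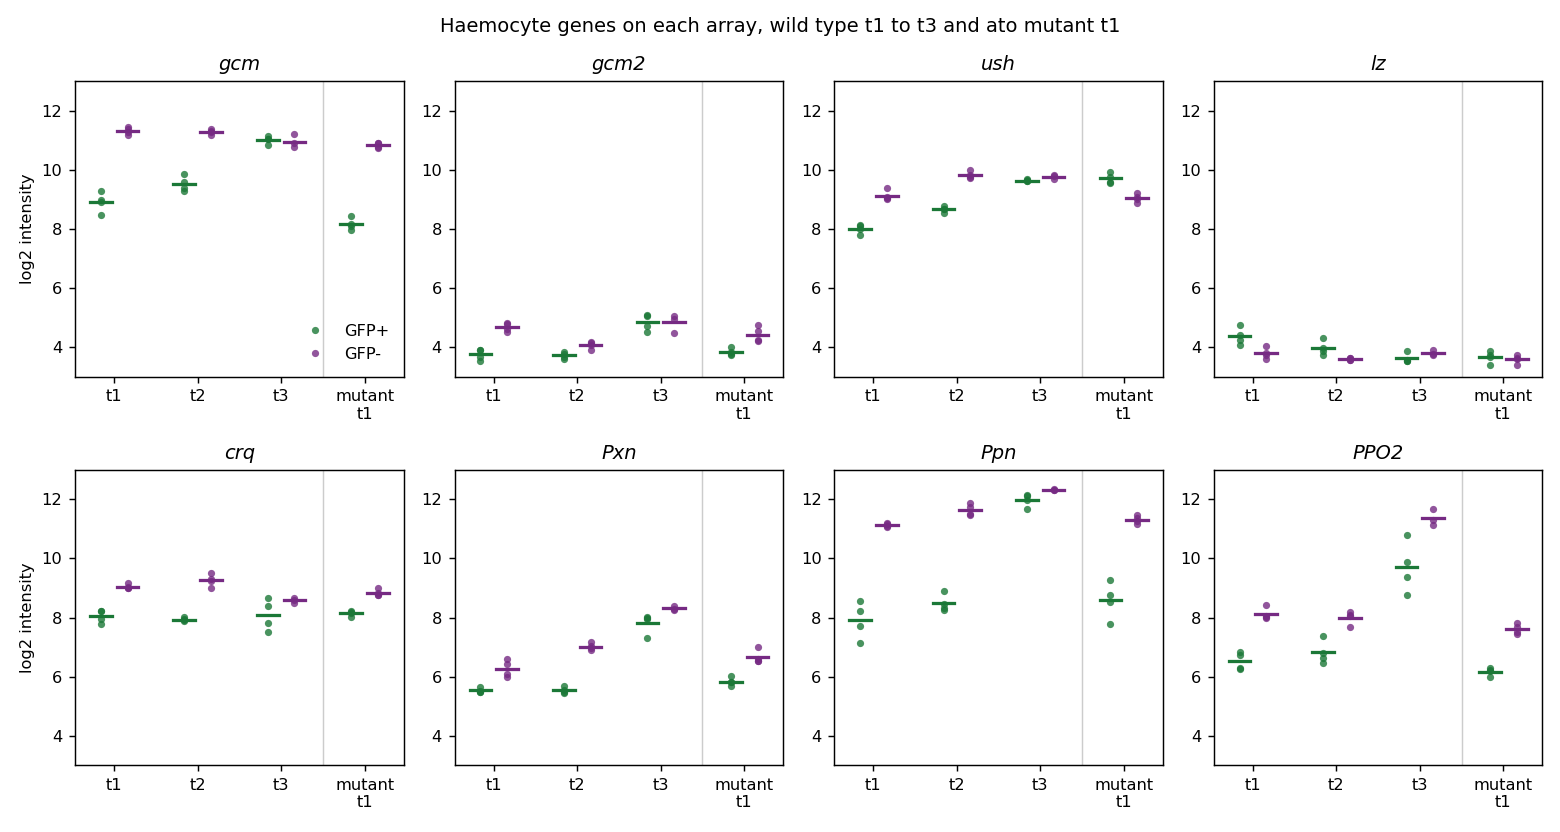
Log2 intensity of each haemocyte gene on each array (points) with the group mean (bar), in GFP+ (green) and GFP− cells (purple) of wild type at t1, t2 and t3 and of the *ato* mutant at t1. At t1 the GFP+ points of *gcm* (8.46 to 9.28) and *Ppn* (7.14 to 8.56) lie far below the GFP− points, at t3 those of *gcm* overlap, and *ush* in the mutant is the reverse of wild type.

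At t2, the next age, 6 of the 8 genes were lower in GFP+ cells and 0 higher, against a background of 5.66% called lower and 3.29% higher. The median difference was −1.25, against 0.01 over all genes. The 6 were *gcm* (3.39-fold lower), *ush* (2.24-fold), *crq* (2.5-fold), *Pxn* (2.78-fold), *Ppn* (8.98-fold) and *PPO2* (2.27-fold). Their adjusted p values ran from 1.6e-12 for *Ppn* to 0.00058 for *PPO2*, and the *PPO2* call was lost when tested against 1.5-fold (adjusted p = 0.33). *gcm2* differed by −0.36 (adjusted p = 0.052) and *lz* by 0.36 (adjusted p = 0.041), and neither was called, although *lz* was again the 1 gene higher at an unadjusted p under 0.05.

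*Pxn* illustrates the age dependence of the GFP− cells. Its GFP+ arrays at t2 stood at 5.48, 5.54, 5.70 and 5.45, close to their t1 values. Its GFP− arrays had reached 6.95, 7.18, 7.03 and 6.91, all above every GFP− array of t1. *crq* at t2 stood at 7.94, 7.88, 8.01 and 7.90 in GFP+ cells and at 9.23, 9.51, 8.99 and 9.29 in GFP− cells. Its levels moved little from t1 in either class.

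At t3 most of the depletion was no longer detected. 1 of the 8 genes, *PPO2*, was lower in GFP+ cells and 0 were higher, where 4.36% of all genes were called lower and 2.97% higher. The median difference of the 8 was −0.26, against 0.01 over all genes. At an unadjusted p under 0.05, 3 genes were lower (*PPO2*, *crq* and *Pxn*) and 0 higher.

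*gcm* at t3 stood at 10.82, 11.05, 11.15 and 11.03 in GFP+ cells and at 10.76, 10.89 and 11.21 in GFP− cells. The groups overlapped, and the log2 difference was 0.06 (95% interval −0.23 to 0.35, adjusted p = 0.88). *gcm2* also overlapped, with 5.10, 5.06, 4.71 and 4.53 in GFP+ cells and 4.97, 5.06 and 4.49 in GFP− cells, a log2 difference of 0.01 (95% interval −0.28 to 0.30). Both intervals exclude the differences of −2.41 and −0.93 seen at t1. *ush* stood at 9.65, 9.61, 9.67 and 9.61 against 9.80, 9.68 and 9.83, which did not overlap by a narrow margin but differed by only −0.14 (95% interval −0.34 to 0.06, adjusted p = 0.44).

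*Ppn* at t3 stood at 12.13, 11.99, 12.11 and 11.69 in GFP+ cells and at 12.32, 12.32 and 12.34 in GFP− cells. All GFP+ arrays were still below the GFP− arrays, with a log2 difference of −0.35 (95% interval −0.84 to 0.14, adjusted p = 0.43). *Pxn* stood at 8.02, 8.0, 7.94 and 7.32 against 8.27, 8.40 and 8.29, a difference of −0.50 (adjusted p = 0.011). It missed both limits, although its groups did not overlap either. *lz* stood at 3.52, 3.57, 3.87 and 3.53 against 3.91, 3.72 and 3.75, with overlap and a difference of −0.18 (adjusted p = 0.49).

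*PPO2* was the gene whose depletion was still called at t3. It stood at 9.38, 9.86, 10.80 and 8.75 in GFP+ cells and at 11.67, 11.30 and 11.13 in GFP− cells. It was 3.18-fold lower in GFP+ cells (log2 difference −1.67, SE 0.27, adjusted p = 3.8e-05), with GFP+ replicate 3 highest and nearest to the GFP− arrays. In a fit of the t3 groups alone this call was lost (adjusted p = 0.052). Without GFP+ replicate 3 the difference of *PPO2* was −2.04 (adjusted p = 2.4e-08). GFP+ replicate 4 was the lowest of its group for *PPO2*, *Ppn*, *Pxn* and *gcm2*. Without it *PPO2* was still called (−1.36, adjusted p = 0.0002), and the uncalled differences were −0.25 for *Ppn*, −0.33 for *Pxn* and 0.12 for *gcm2*. The part of the sensory precursor level of that array in these values was not tested.

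The call of *crq* at t3 turned on that array. *crq* stood at 7.81, 7.50, 8.65 and 8.39 in GFP+ cells and at 8.50, 8.59 and 8.65 in GFP− cells, so that replicate 3 was level with the highest GFP− array. The difference of −0.50 (adjusted p = 0.03) was not called. Without GFP+ replicate 3 *crq* was called lower, at −0.68 (adjusted p = 0.00052), and 2 genes rather than 1 were then lower at t3. The mesoderm and endoderm means of the same array, given above, were nearer to GFP− cells in the same way, and their part in these values was not tested.

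**Figure D2:**
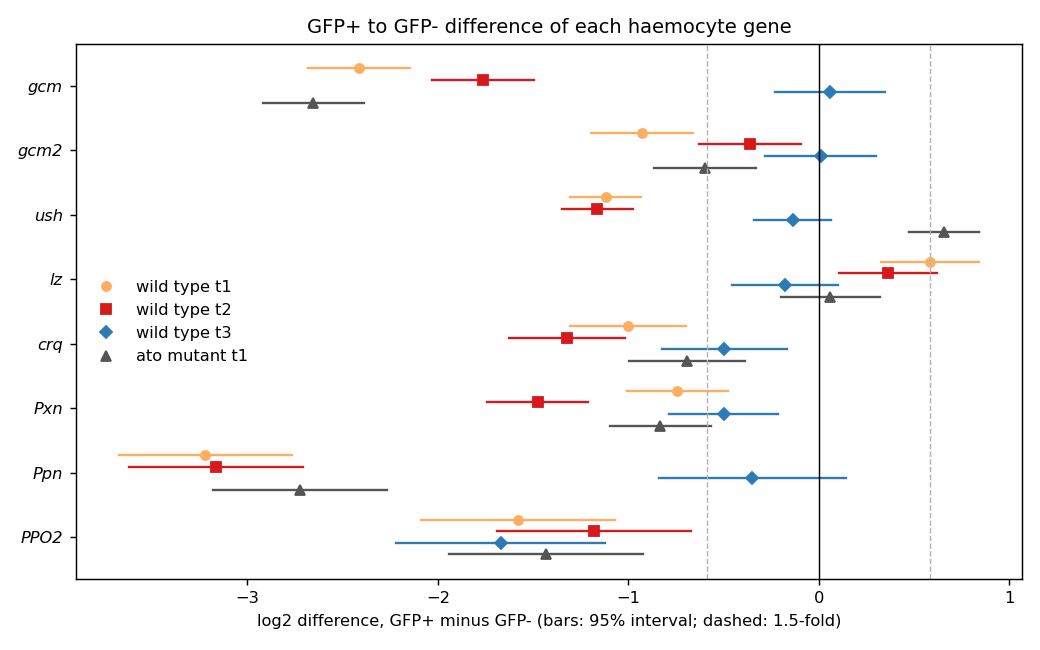
Log2 difference of GFP+ minus GFP− cells for each haemocyte gene at t1, t2 and t3 in wild type and at t1 in the *ato* mutant (points, with 95% intervals as bars; dashed lines mark a 1.5-fold change). *gcm* moves from −2.41 at t1 to 0.06 at t3, *PPO2* stays between −1.67 and −1.18 in wild type, and *ush* lies at −1.12 in wild type and 0.66 in the mutant at t1.

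The change between t1 and t3 was tested as a difference of the GFP+ to GFP− ratios in the same fit, which uses the arrays of both ages described above. The ratio rose for 4 of the 8 genes and fell for 1, where over all genes 2.78% rose and 2.02% fell. *Ppn* changed by 2.87 (SE 0.33, adjusted p = 3.0e-07), *gcm* by 2.47 (SE 0.19, adjusted p = 1.8e-10), *ush* by 0.98 (SE 0.13, adjusted p = 5.2e-06) and *gcm2* by 0.94 (SE 0.19, adjusted p = 0.0015). A rise here is a loss of depletion, since none of the 4 was called higher in GFP+ cells at t3. The same 4 genes were called without GFP+ replicate 3 or 4 of t3. The ratio of *lz* fell by 0.76 (adjusted p = 0.0078), a call lost without any 1 of GFP+ replicates 1 and 2 or GFP− replicates 2, 3 and 4 at t1, or of GFP+ replicates 1, 2 and 4 or GFP− replicates 1, 2 and 3 at t3 (values of −0.80 to −0.63 for *lz* without 1 of these). In a fit of the t1 and t3 groups alone the calls of *gcm2* (adjusted p = 0.014) and *lz* (adjusted p = 0.028) were lost.

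No change of ratio was detected for the other 3 genes. For *PPO2* the change was −0.09 (95% interval −0.84 to 0.66), which leaves room for a change of more than 1.5-fold either way. For *crq* it was 0.51 (adjusted p = 0.21) and for *Pxn* 0.24 (adjusted p = 0.62).

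Levels within each cell class show which side moved. In GFP− cells 4 of the 8 genes rose from t1 to t3, where 13.6% of all genes rose. *PPO2* rose 9.52-fold (log2 change 3.25, SE 0.27, adjusted p = 1.3e-11), *Pxn* 4.12-fold (2.04, adjusted p = 2.2e-13), *Ppn* 2.30-fold (1.20, adjusted p = 0.00011) and *ush* 1.56-fold (0.65, adjusted p = 1.7e-06), a call lost with ribosomal centring (0.43). *gcm* and *crq* changed by −0.37 and −0.47 and were not called. For *gcm2* the change was 0.16 and for *lz* 0.01.

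In GFP+ cells 6 of the 8 genes rose over the same interval and 1 fell, against 14.1% and 14.7% of all genes. The median change of the 8 was 1.87 in GFP+ cells and 0.40 in GFP− cells, against −0.08 over all genes in both. *Ppn* rose 16.8-fold (4.07, SE 0.22, adjusted p = 9.0e-16) and *gcm* 4.30-fold (2.11, SE 0.13, adjusted p = 1.4e-14). *PPO2* rose 8.95-fold, *Pxn* 4.87-fold, *ush* 3.09-fold and *gcm2* 2.14-fold, while *lz* fell to 3.62 from 4.37. *crq* changed by 0.04 (adjusted p = 0.86).

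The steps between the ages differed from gene to gene. *gcm* in GFP+ cells stood at 9.28, 9.59, 9.85 and 9.39 at t2, between its means of 8.91 at t1 and 11.01 at t3. *PPO2* in GFP+ cells stood at 6.81, 7.38, 6.62 and 6.48 at t2, overlapping its t1 arrays, and all 4 of its t3 arrays lay at 8.75 or above. *Ppn* followed the same course, with a mean of 8.48 at t2 and 11.98 at t3. For these genes most of the rise in GFP+ cells therefore lay between t2 and t3, which is a description of group means without a test of its own.

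**Figure D3:**
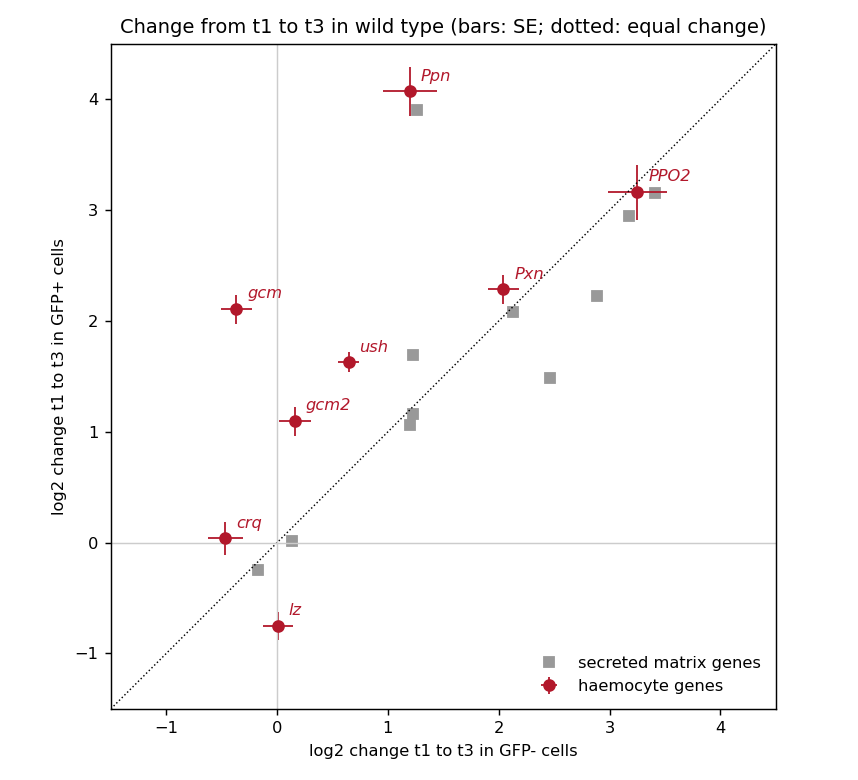
Log2 change from t1 to t3 in wild-type GFP− cells (horizontal) and GFP+ cells (vertical) for the 8 haemocyte genes (red, with SE) and for 11 genes of matrix that haemocytes secrete (grey). *PPO2* (3.25 and 3.16) and *Pxn* (2.04 and 2.28) lie near the dotted line of equal change, and *Ppn* (1.20 and 4.07), next to the matrix gene *Ndg* (1.26 and 3.90), and *gcm* (−0.37 and 2.11) lie well above it.

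Other cell types moved with these changes. The 4 mesoderm and muscle genes were all lower in GFP+ cells at t1 (median −3.28) and t2 (median −3.15), and 3 of 4 were at t3 (median −1.01), with the ratio of all 4 rising between t1 and t3 (median 2.27). The 3 endoderm genes (*GATAe*, *hkb* and *fkh*) were lower at every age (medians −2.68, −2.23 and −1.09). The 3 sensory precursor genes (*ato*, *cato* and *sens*) were higher at every age (medians 3.64, 3.80 and 1.39) and all 3 lost ratio (median −1.95). The tracheal gene *btl* was lower at t1 and t3 (−2.46 and −0.74). Of 2 germ line genes measured 1 was lower at each age, with list medians of −0.79 at t1 and −0.99 at t3. Over all genes 4.77%, 5.66% and 4.36% were called lower at t1, t2 and t3, and 2.45%, 3.29% and 2.97% higher. The part of these cell types in the haemocyte values was not tested.

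The *ato* mutant served to compare the differences with and without *ato*. The paper states that most mutant GFP+ cells are not specified as chordotonal precursors and stay ectodermal, although some chordotonal neurons still form. A genotype difference therefore also compares cells of partly different identity. An effect of *ato* on a gene cannot be told apart from this. At t1 in the mutant 6 of the 8 genes were lower in GFP+ cells and 1 was higher, where 8.18% of all genes were called lower and 5.89% higher. The median difference of the 8 was −0.76, against 0.04 over all genes. *gcm* was 6.29-fold lower, *Ppn* 6.61-fold, *PPO2* 2.70-fold, *Pxn* 1.78-fold, *crq* 1.62-fold and *gcm2* 1.51-fold, with adjusted p values from 1.4e-16 for *gcm* to 0.00057 for *gcm2*. The calls of *gcm2* and *crq* were lost when values were centred on ribosomal protein genes (−0.36 and −0.45), that of *gcm2* also without mutant GFP+ replicate 1 (−0.56) or 2 (−0.57) or GFP− replicate 3 (−0.56) or 4 (−0.49) or with array weights (−0.57), and that of *Pxn* with the mean of its probe sets (−0.44).

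*ush* was the exception. In mutant GFP+ cells it stood at 9.56, 9.60, 9.92 and 9.74, and in mutant GFP− cells at 9.01, 8.89, 9.09 and 9.21. Every GFP+ array was above every GFP− array, the reverse of wild type, and *ush* was 1.58-fold higher in GFP+ cells (log2 difference 0.66, SE 0.09, adjusted p = 6.9e-07), a call lost with cyclic loess scaling (0.57). The ratio differed between wild type and mutant by −1.78 (SE 0.13, adjusted p = 9.2e-12). *ush* was the 1 gene of 8 called in this comparison, in which 2.39% of all genes were called in the same direction, and 0 were called in the other, where 4.75% of all genes were, but *lz* alone (0.52, adjusted p = 0.053) at an unadjusted p under 0.05.

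The shift of *ush* lay in the sorted cells. In GFP+ cells *ush* was 3.25-fold lower in wild type than in the mutant (log2 difference −1.70, SE 0.09, adjusted p = 3.4e-15), and the arrays, 7.79 to 8.12 and 9.56 to 9.92, were far apart. In GFP− cells the difference was 0.08 (95% interval −0.11 to 0.26, adjusted p = 0.66). The mutant GFP+ level at t1 (mean 9.71) was near that of wild-type GFP+ cells at t3 (mean 9.63). *srp* went the other way from *ush*, with GFP+ means at t1 of 6.35 in the mutant and 7.35 in wild type. Other cell types moved between the genotypes as well. In mutant GFP+ cells the mesoderm and muscle genes had array means of 5.05 to 5.67, against 6.48 to 7.22 in wild type, and the endoderm genes 4.44 to 4.75, against 6.14 to 6.72. Their part in the *ush* values was not tested.

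*gcm* and *lz* differed in the opposite direction between the GFP+ cells of the genotypes. With *ush*, this made 2 genes higher and 1 lower in wild type, where 2.87% and 3.41% of all genes were called. *gcm* stood at 8.17, 7.98, 8.11 and 8.45 in the mutant and was 1.66-fold higher in wild type (0.73, SE 0.13, adjusted p = 9.8e-05), although the lowest wild-type array (8.46) lay just above the highest mutant array (8.45). *lz* stood at 3.73, 3.67, 3.85 and 3.39 in the mutant and was 1.64-fold higher in wild type (0.71, adjusted p = 9.0e-05). Its call was lost without wild-type GFP+ replicate 2 (0.58). *Ppn* differed by −0.68 (adjusted p = 0.034) and was called lower without wild-type GFP+ replicate 4 (−0.90) or mutant GFP+ replicate 1 (−0.95), while *PPO2* (0.36), *gcm2* (−0.08), *crq* (−0.10) and *Pxn* (−0.30) were not called.

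In GFP− cells 0 of the 8 genes were called higher or lower between the genotypes by limma, where 4.37% and 5.92% of all genes were. At an unadjusted p under 0.05, *gcm* was higher in wild type (0.49, adjusted p = 0.0045) and *Pxn* lower (−0.39, adjusted p = 0.025), both short of 1.5-fold. For *gcm*, *Ppn*, *PPO2*, *crq* and *Pxn* the ratio in the mutant was not detectably different from wild type. The 95% interval of that difference was −0.14 to 0.62 for *gcm*, −1.14 to 0.15 for *Ppn* and −0.87 to 0.57 for *PPO2*, so differences of 1.5-fold and more are not excluded.

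The regulators that work with these genes were taken as a list of 8, all measured. At t1, 4 were lower in GFP+ cells and 2 higher (list median −0.53), where 4.77% and 2.45% of all genes were. *srp*, the GATA factor gene of the blood lineage and fat body, was 8.31-fold lower (log2 difference −3.06, adjusted p = 1.0e-12). *zfh1*, a zinc-finger and homeodomain repressor, was 8.87-fold lower (−3.15), *pnr*, another GATA factor gene, 3.60-fold (−1.85), and *Pvr*, the receptor tyrosine kinase on which haemocytes depend for migration and survival, 2.14-fold (−1.10). *klu* and *peb*, zinc-finger genes with roles in both blood and nervous system, were 2.5-fold and 2.37-fold higher. *Bgb* and *Bro*, partners of Runx factors, differed by 0.04 and 0.06.

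At t3 only *srp* of this list was called, where 4.36% of all genes were called lower and 2.97% higher. *srp* was 2.18-fold lower (−1.12, adjusted p = 0.00053), at 9.22, 9.34, 10.51 and 9.71 in GFP+ cells and 10.66, 11.01 and 10.77 in GFP− cells. Replicate 3 again lay nearest to the GFP− arrays. From t1 to t3 the ratio rose for 4 of the 8 regulators and fell for 1, where 2.78% of all genes rose and 2.02% fell. In GFP+ cells 6 rose, against 14.1% of all genes, with *zfh1* 9.77-fold, *Pvr* 6.47-fold and *srp* 5.09-fold up. In GFP− cells 4 rose and 2 fell, against 13.6% and 14.5% of all genes. In the mutant at t1 *zfh1* (19.8-fold), *srp* (14.9-fold) and *pnr* (3.17-fold) were again lower and *klu* higher. *Pvr*, like *ush*, differed by genotype, with a log2 difference of −0.05 in the mutant and a ratio that differed from wild type by −1.05 (adjusted p = 6.9e-05).

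Of 11 listed surface and phagocytosis genes of plasmatocytes 2 were lower at t1 and 0 higher, where 4.77% and 2.45% of all genes were (list median 0.09): *Sr-CI*, a scavenger receptor gene, 4.23-fold and *NimC4*, a receptor for dying cells, 1.61-fold. At t2 and at t3 1 was lower, where 5.66% and 4.36% of all genes were, and at t3 this was *Sr-CI* (−0.67). *Hml*, *NimC1*, *He* and *eater*, common markers of plasmatocytes, had group means from 3.26 to 4.83 over the 8 groups, around or under the median of all values, and were called in 0 comparisons, so the defining markers of mature plasmatocytes were at or near background in both classes and could show no depletion. The list median includes them. It was not compared with the 8 genes by a test. In the mutant *Sr-CI* was lower (4.62-fold) and *Sr-CII* higher (1.65-fold). From t1 to t3 in GFP− cells *Glt*, a gene for the matrix-associated protein glutactin, rose 3.49-fold and *Sr-CII* fell from 11.69 to 7.27. In GFP+ cells *Glt* rose 3.61-fold and *Sr-CII* fell from 11.87 to 7.57, and *Sr-CI* (1.99-fold) and *NimC4* (1.59-fold) also rose. Over all genes 13.6% rose and 14.5% fell in GFP− cells, and 14.1% and 14.7% in GFP+ cells.

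Of 12 listed genes of haemocyte-secreted matrix 11 were measured. At t1, 2 were lower in GFP+ cells, *Ndg* (nidogen, 4.44-fold) and *LanA* (a laminin chain, 1.53-fold), and at t3 0 of the 11 were called, with list medians of −0.01 and −0.17. Several stood low in both classes at t1 and could show little depletion. Examples are *Mmp2* (3.88 in GFP+ and 3.89 in GFP− cells), *Timp* (4.14 and 4.06) and *vkg* (5.35 and 5.36). *LanB1* (11.22 and 11.35) and *LanB2* (11.35 and 11.45) stood high and were not called either. At t2 1 was lower, and in the mutant 1 was lower (*Ndg*, 7.67-fold) and 1 higher (*SPARC*, 1.87-fold). Over all genes 4.77% were lower at t1, 5.66% at t2, 4.36% at t3 and 8.18% in the mutant, where 5.89% were higher. From t1 to t3, however, 9 of the 11 rose in GFP− cells and 9 in GFP+ cells (list medians 1.26 and 1.70). Over all genes 13.6% and 14.1% rose, with a median of −0.08 in both classes. The type IV collagen genes *vkg* and *Col4a1* rose 10.6-fold and 9.05-fold in GFP− cells and 8.91-fold and 7.73-fold in GFP+ cells. The other 7 that rose did so 2.29-fold (*LanB1*) to 7.39-fold (*Tig*) in GFP− cells and 2.09-fold (*LanB1*) to 14.97-fold (*Ndg*) in GFP+ cells. *Pxn*, itself a matrix enzyme gene, rose 4.12-fold and 4.87-fold. Its ratio, like those of 9 of the 11, was not called as changed, where 2.78% of all genes rose and 2.02% fell.

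*PPO1* is the other crystal cell prophenoloxidase gene. Its ratio was not called at t1 (−0.45, adjusted p = 0.36), at t2 (−0.67, adjusted p = 0.094) or in the mutant (−0.65, adjusted p = 0.085). In these comparisons *PPO1* stood low in both classes and could show little depletion. Its GFP+ and GFP− means were 5.24 and 5.69 at t1, 5.5 and 6.18 at t2, and 5.03 and 5.67 in the mutant. The missing calls therefore do not set it apart from *PPO2*. At t3 *PPO1* stood at 9.29 in GFP+ and 10.95 in GFP− cells, and was 3.16-fold lower in GFP+ cells (adjusted p = 0.00014). Its ratio changed by −1.22 between t1 and t3 (adjusted p = 0.07), and the difference between the 2 genes was not tested. *PPO1* rose 38.4-fold in GFP− cells and 16.5-fold in GFP+ cells from t1 to t3. Of 5 measured genes of the 6 listed for crystal cells and melanisation it was the 1 called in any of these comparisons.

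**Figure D4:**
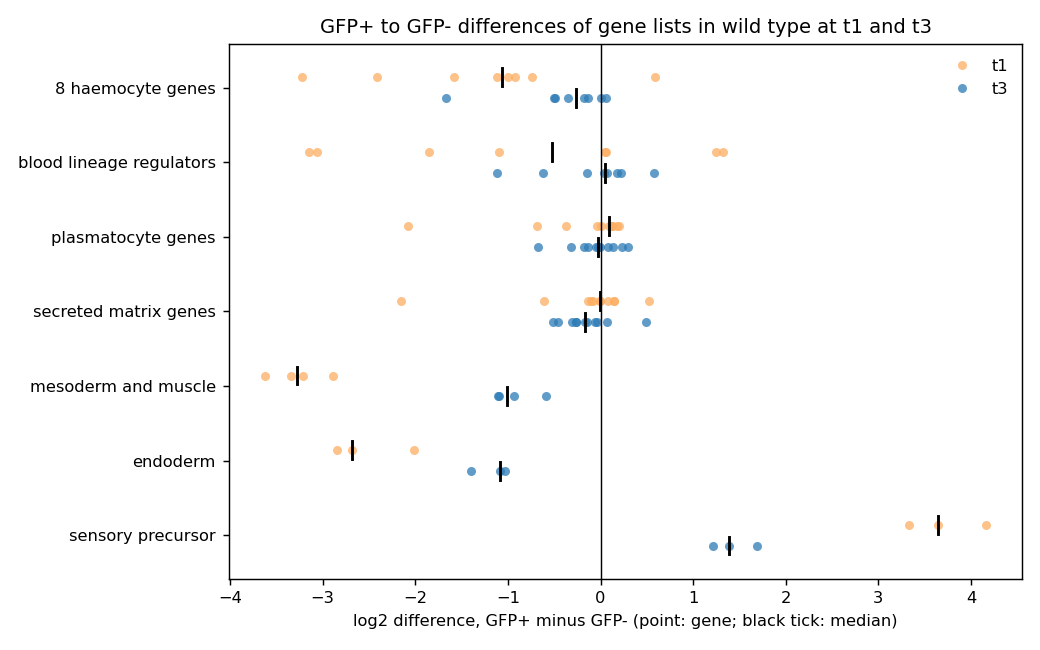
Log2 difference of GFP+ minus GFP− cells in wild type at t1 (orange) and t3 (blue) for each gene (point) of the haemocyte genes and of 6 other lists, with list medians as black ticks. The haemocyte genes have medians of −1.06 and −0.26, the plasmatocyte and matrix medians lie near 0 at t1 (0.09 and −0.01), and mesoderm and endoderm lists lie below 0 at both ages. Several plasmatocyte and matrix genes were low in both classes at t1 and could show little depletion.

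*gcm* also acts in glia, and 5 of 8 listed genes of that programme were measured. At t1 *moody*, a receptor gene of the glial blood-brain barrier, was 6.59-fold lower and *repo*, the homeobox gene of lateral glia, 1.82-fold lower in GFP+ cells, while *loco*, a regulator of G protein signalling, was 2.35-fold higher. At t3 *loco* alone was called, 1.77-fold higher. Over all genes 4.77% were called lower and 2.45% higher at t1, and 4.36% and 2.97% at t3. In the mutant *repo* and *moody* were again lower and *loco* and *nrv2* higher, where 8.18% and 5.89% of all genes were. Between t1 and t3 *repo* rose 11.7-fold in GFP+ cells and 5.08-fold in GFP− cells, and *wrapper*, a glial surface protein gene, 11.1-fold and 6.84-fold. Over all genes 14.1% rose in GFP+ cells and 13.6% in GFP− cells. Of the 3 glia markers, *repo* and *wrapper* thus rose in GFP+ cells along with *gcm*, and *loco* did not (−0.03). *nrv2*, also on the list, did not either (0.13, adjusted p = 0.31 in limma). Its differences of 0.31 at t1 and 0.23 at t3 were not called. *moody* rose 5.62-fold in GFP+ cells (adjusted p = 1.5e-12) and was not called in GFP− cells (0.35, adjusted p = 0.18), with a ratio that rose by 2.14 (adjusted p = 2.6e-06). For the 3 markers the median ratio was −0.45 at t1 and 0.34 at t3. The part of glia and of blood cells in the *gcm* level of GFP+ cells at t3 was not tested.

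The genes closest to each haemocyte gene were ranked by Pearson r over the 31 arrays, which share the 8 groups, so that r mostly reflects group means. For *gcm* they were *CadN* (0.972), *ltl* (0.971) and *zfh1* (0.965). For *gcm2* they were *RluA-1* (0.913), *kcc* (0.898) and *Ogdh* (0.895). For *ush* the values were lower, with *opa* (0.809), *Nost* (0.808) and *cwo* (0.802). For *crq* they were *pyd3* (0.911), *Dgat2* (0.904) and *CG15745* (0.898), and for *Pxn* *RyR* (0.976), *nemy* (0.972) and *Orp8* (0.964). For *Ppn* they were *CG4829* (0.985), *cv-d* (0.983) and *GlcAT-P* (0.982), and for *PPO2* *Phb2* (0.971), *Hsp60A* (0.967) and *Pgm1* (0.966). *lz* varied by less than 1 log2 unit between group means and was not ranked. Among the 8 genes themselves *Pxn* and *PPO2* were most alike (0.922), then *gcm* and *Ppn* (0.892), whereas *ush* and *lz* ran opposite ways (−0.70).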

How the data were processed

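RMA with quantile normalisation (package AffyPLM) of Affymetrix *Drosophila* 2.0 arrays gave the log2 intensities that the authors deposited for each array. No raw intensities were used. Values ran from 2.77 to 14.5, and no array repeated another (highest correlation 0.998). Control probe sets (183 of 18952) were left out. Of 18769 tested, 13647 name 1 gene, 402 several and 4720 none in the platform's table. The labels describe one round of labelling and the methods a 2-cycle protocol, which was not settled. The number of arrays limits the precision.

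All 31 arrays entered a single limma fit (3.58.1, R 4.3.3) of 8 group means, with Benjamini-Hochberg adjustment over all tested probe sets within each comparison. Limits were 1.5-fold and an adjusted p of 0.01. Background percentages count 1 probe set per gene. Genes named are the 8 haemocyte genes, *ato*, genes of the pathway lists (blood lineage regulators, plasmatocyte genes, secreted matrix, crystal cell enzymes, PVR ligands and the glial programme of *gcm*) and marker lists, and the 3 genes most correlated with each of the 8 whose group means span at least 1 log2 unit. The genes and lists were chosen with earlier results of these data known. Listed genes that no probe set names alone were not analysed here. No list was tested as a set.

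The alternatives tried were a fit restricted to the arrays being compared, a random block for replicate number, no dim probe sets (highest group mean under the median of all values, 4.77), cyclic loess, centring on 43 ribosomal protein probe sets, array weights, a test against 1.5-fold (treat), an adjusted p limit of 0.05, the mean of a gene's probe sets, an intensity trend with robust estimates, and each array left out in turn. The paper states that both cell classes were collected in each sorting run, so the classes are matched by run. The main fit did not use this and treated all arrays as independent. GFP+ and GFP− samples share replicate numbers, but the paper does not say that equal numbers mark the same run. Deviations of equal numbers correlated at 0.213 to 0.299 in the mutant. In wild type the values were 0.0676 to 0.327 at t1, −0.0186 to 0.0646 at t2 and 0.037 to 0.558 at t3, and some lay under 0.1. In the mutant and at t1 the GFP− array closest to each GFP+ array was that of the same number. This failed for replicate 3 at t2 and replicate 2 at t3, so whether equal numbers mark the same run at those ages is not settled. The steps were tested on simulated data with known changes.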

Additional observations from a re-analysis of the deposited data

Results flagged for a closer look

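The change of the GFP+ to GFP− ratio between t1 and t3 was itself tested, and it passed the limits for 5 of the 8 haemocyte genes: *Ppn* (2.87), *gcm* (2.47), *ush* (0.98), *gcm2* (0.94) and *lz* (−0.76), where 2.78% of all genes rose and 2.02% fell. In a fit of the groups compared alone *gcm2* (adjusted p = 0.014) and *lz* (adjusted p = 0.028) lost this call. For *ush* the ratio also differed between wild type and the *ato* mutant at t1, by −1.78.

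In 6 of 63 sets of 4 arrays 1 array lay far from the other 3, for the range of its group. Chance gives about 1 such set in 20. For the main *Pxn* probe set these were GFP+ replicate 3 at t1 (5.65, next 5.51), GFP+ replicate 4 at t3 (7.32, next 7.94) and mutant GFP− replicate 4 (7.00, next 6.61), and for the flat *Pxn* probe set that same mutant array (3.88, next 3.66). The others were *PPO2* in GFP− replicate 3 at t1 (8.43, next 8.04) and *lz* in GFP+ replicate 3 at t3 (3.87, next 3.57).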

How the results depend on the processing

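Under 10 alternatives and with each of 31 arrays left out, 3187 of 3270 values for the 8 genes kept direction and call, 44 lost a call, 11 gained one, and 28 changed sign, of which 0 had been called. Many of these values could not change direction. Leaving out an array of a group not compared, the 0.05 limit and the test against 1.5-fold leave the difference itself unchanged. So does the mean of probe sets for genes with 1 probe set. The share kept is therefore no measure of robustness. Testing against 1.5-fold gave 4 genes lower at t1, 5 at t2 (without *PPO2*), 0 lower at t3, 0 higher and 2 lower in the mutant, 2 with a ratio that rose and 0 with one that fell, 2 higher with time in GFP− cells, 0 lower with time in GFP+ cells and 0 higher in wild-type than mutant GFP+ cells. A fit of only the groups compared gave 0 lower at t3 and 0 ratios that fell (*lz* adjusted p = 0.028), and 3 that rose (without *gcm2*, adjusted p = 0.014). Array weights gave 2 lower at t3, where GFP+ replicate 3 had a weight of 0.418, and 5 lower in the mutant (without *gcm2*), and cyclic loess 0 higher in the mutant. Ribosomal centring gave 1 higher at t1 and 1 (*crq*, −0.68) lower with time in GFP− cells. Without dim probe sets *lz* could not be tested, which left 0 falling ratios, 0 lower with time in GFP+ cells and 1 higher in wild-type GFP+ cells. With an adjusted p limit of 0.05, 2 were lower in wild-type GFP+ cells. Leaving out arrays gave 0 to 1 higher at t1, 1 to 2 lower at t3, 0 to 1 falling ratios and, between GFP+ cells of the genotypes, 1 to 2 higher and 1 to 2 lower. The replicate block (correlation 0.133) kept 7 genes lower at t1, with *gcm* at −2.41, and changed no other call. Its numbers matched the closest array for every pair only in the mutant and at t1. Uncalled values that changed sign were, for *gcm2* at t3, −0.021 with cyclic loess and −0.0030 with weights. With ribosomal centring they were −0.069 for the wild type minus mutant ratio of *Pxn*, −0.055 and −0.21 for the change of *gcm2* and *lz* with time in GFP− cells, and −0.20 for that of *crq* in GFP+ cells. Weights gave −0.017 for *lz* and −0.15 for *crq* there, and cyclic loess −0.040 for *ush* between genotypes in GFP− cells. With arrays left out, ranges that crossed 0 were −0.039 to 0.19 for *gcm* and −0.16 to 0.12 for *gcm2* at t3, −0.0053 to 0.15 for *lz* in the mutant, −0.020 to 0.20 for the *Pxn* ratio between genotypes, −0.46 to 0.23 for the *PPO2* ratio change, −0.061 to 0.091 for *lz* in GFP− cells, −0.15 to 0.23 for *crq* in GFP+ cells and −0.0086 to 0.13 for *ush* in GFP− cells between genotypes. Ribosomal centring moved the median of all genes to 0.17 at t2, 0.28 in the mutant, −0.19 for the ratio between genotypes, −0.30 and −0.31 with time in GFP− and GFP+ cells and −0.11 between GFP+ cells, and changed the number of all genes called higher and lower from 293 and 572 to 373 and 463 at t1, from 394 and 678 to 646 and 463 at t2, from 706 and 980 to 1597 and 690 in the mutant and from 344 and 408 to 234 and 573 between GFP+ cells. For the ratio between genotypes these numbers were 569 and 286, and 714 and 145 with cyclic loess or 386 and 671 with ribosomal centring; with time in GFP− cells they were 1626 and 1738, 1999 and 1090, and 1276 and 2658, and in GFP+ cells 1689 and 1759, 2060 and 1237, and 1306 and 2747. Cyclic loess changed 524 and 709 to 336 and 865 between GFP− cells. For uncalled values and lost calls the cause was not tested.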

Other observations

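The ligands of the Pvr receptor, *Pvf1*, *Pvf2* and *Pvf3*, which guide haemocytes as they migrate, were all measured. From t1 to t3 *Pvf1* rose 6.16-fold in GFP− cells and 4.24-fold in GFP+ cells, and *Pvf2* rose 4.86-fold and 2.80-fold, while *Pvf3* was called in neither class. *Pvf2* rose from near background, with means of 3.07 in GFP− and 3.15 in GFP+ cells at t1. At t3 these were 5.35 and 4.63, still low. At t1 *Pvf3* was 1.52-fold higher in GFP+ cells, at t3 *Pvf2* was 1.64-fold lower, and in the mutant at t1 *Pvf3* was 1.85-fold higher and *Pvf1* 1.55-fold lower. Over the 3 ligands 1 was thus higher and 0 lower at t1, and 0 higher and 1 lower at t3. Of all genes 2.45% were higher and 4.77% lower at t1, and 2.97% higher and 4.36% lower at t3. In the mutant 5.89% were higher and 8.18% lower. With time 13.6% rose in GFP− cells and 14.1% in GFP+ cells.

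With *srp*, *Hml*, *NimC1* and *He* added to the 8 genes, 8 of 12 haemocyte markers were lower in GFP+ cells at t1, 7 at t2, 2 at t3 and 7 in the mutant, where 4.77%, 5.66%, 4.36% and 8.18% of all genes were. In the mutant 1 was higher, against 5.89%. The added calls are those of *srp*.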
